A study of Mus musculus with 2 samples.

Results

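Cluster 7 was a group of 247 colon epithelial cells whose averages of DNA replication and mitosis genes were the highest among the 12 cell clusters that the authors defined. Its members were taken as the column headed 7 in the authors' table of cluster averages, and they made up 247 of 3082 cells (8.01%). The cell numbers are not written in the table and were recovered from its values. The study sequenced the RNA of single colon epithelial cells of mice of the C57BL/6 strain and wild type genotype, sampled 2 weeks after irradiation, in 2 libraries of that single group. Its title names radiation proctitis, an injury of the rectum by radiation, and the transplantation of colonoids, which are organoids grown from colon crypts. By their labels both libraries shared the genotype, the strain, the irradiation and the time, and cells of unirradiated mice were not analysed here. The labels give neither the number, age or sex of the animals nor a mark that tells grafted from host cells, and the titles of both libraries carry the same code, whose meaning they do not give.

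Each value below is a level, the mean number of UMIs (unique molecular identifiers, each tagging 1 captured RNA molecule) per 10000 UMIs of a cell, averaged over the cells of a cluster. Since each column pools the libraries, no value has a replicate and no difference could be tested. Differences are described by size, with Poisson 95% intervals in brackets that cover counting error only. They rest on approximate UMI numbers that give every cell of a cluster the same total, the harmonic mean of the recovered ones. A UMI of a shallow cell weighs more in an average, so intervals can be too narrow where shallow cells give much of a level. An average does not show how a gene is spread over cells, and fewer cells with a transcript cannot be told apart from less of it per cell. The clusters come from the expression of the same cells, and genes that set cluster 7 apart describe it without being independent evidence for it.

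The lining of the colon is renewed from crypts, pits that hold stem cells at their base and dividing progenitors above them, which then mature into absorptive, goblet and endocrine cells. A dividing cell licenses its replication origins and copies its DNA in S phase, then condenses the chromosomes, attaches them to a spindle and separates the daughters by cytokinesis. E2F factors drive many genes of the copying steps, and many genes of mitosis carry CCAAT boxes, bound by NF-Y, together with a cell cycle homology region, bound by the MuvB complexes with B-MYB and FOXM1.

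The label of a proliferating crypt epithelium was first set against marker genes. All 15 markers of cycling cells had their highest level in cluster 7. Their levels summed to 28.4 in cluster 7, against 3.30 in cluster 2, 6.32 in cluster 6, the next highest, and 0.4001 in the lowest cluster. Epithelial markers, among them the adhesion molecule Epcam and the keratins Krt8 and Krt18, summed to 142 in cluster 7 and 141 in cluster 2. The label therefore stood on epithelial RNA at the level of the neighbouring cluster and on cycling genes well above it.

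Markers of other cell types were low in cluster 7 but seldom absent. The 6 goblet markers summed to 15.2 in cluster 7 against 8.72 in cluster 2, far below the 817 of the goblet cluster 0. The 6 absorptive markers summed to 4.04 in cluster 7 against 5.70 in cluster 2, and reached 245 in cluster 8. The 6 enteroendocrine markers summed to 0.194 in cluster 7 against 0.0914 in cluster 2, and reached 1242 in cluster 11. The 5 neutrophil markers summed to 2.79 in cluster 7 against 32.5 in cluster 2, and reached 912 in the neutrophil cluster 5. Each of these sums was thus a small part of that in the cluster where the cell type was found. Macrophage and dendritic markers summed to 0.467 in cluster 7 and 0.603 in cluster 2, and those of B and plasma cells to 0.0514 in cluster 7 and 0.0172 in cluster 2. The macrophage sum was highest, at 287, in cluster 10. The T and NK cell genes Cd3d, Cd3e, Cd3g and Nkg7 and the tuft cell genes Dclk1 and Trpm5 were listed at 0 in cluster 7. So were the macrophage gene Csf1r and the endothelial gene Plvap. In cluster 7, 3 UMIs would give 0.0108 at the harmonic mean of the recovered totals, and more in a shallower cell.

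Cells of cluster 7 were the deepest of the 12 clusters. UMI totals could be read from the arithmetic of low averages for 218 of the 247 cells (88.3%). In simulated data such totals were true ones but missed shallow cells more often than deep ones. The recovered totals of cluster 7 had a median of 19517.5 UMIs (quartiles 15653 and 24219.8, range 552 to 51266), against 13502 in cluster 2, 2498.5 in cluster 6 and 12191.5 over all clusters. The share of RNA from ribosomal protein genes was 22.7% in both clusters 7 and 2. Mitochondrially encoded genes took 2.95% in cluster 7 and 4.55% in cluster 2, and the nuclear RNA Malat1 0.945% in cluster 7, the lowest of the 12 clusters, and 2.44% in cluster 2. The part of depth in the differences below was not tested.

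**Figure D1:**
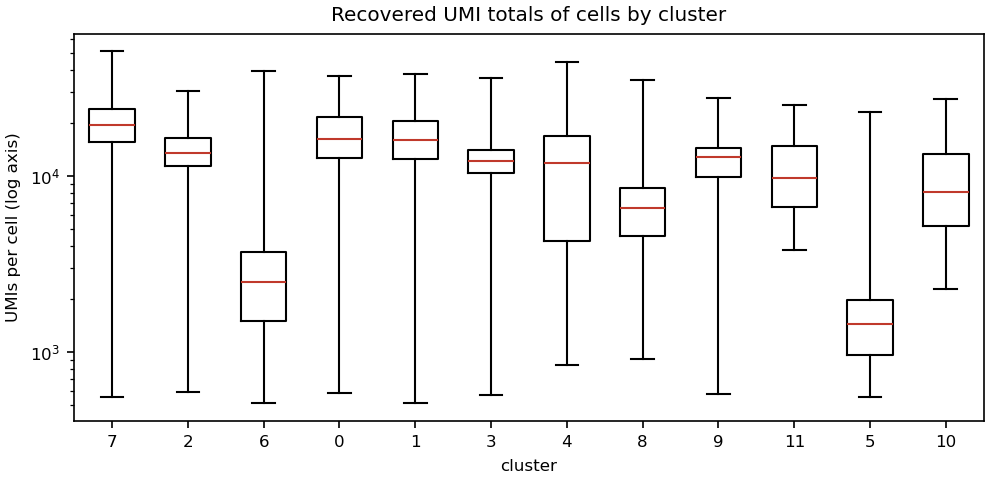
UMI totals recovered for single cells of each cluster on a log axis, with boxes from the lower to the upper quartile, a red line at the median and whiskers to the lowest and highest total. Cluster 7, at the left, has the highest median (19517.5 UMIs), and cluster 5 the lowest (1430 UMIs).

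Of the 6 genes given as markers of the cluster, 5 had their highest level in cluster 7. Mki67, a protein of the surface of mitotic chromosomes, stood at 1.47 (1.33 to 1.62) in cluster 7 and 0.0844 (0.0499 to 0.134) in cluster 2, and over the 11 other clusters it ran from 0.00661 to 0.726 with a median of 0.0687, the highest in cluster 6. Birc5, the survivin subunit of the chromosomal passenger complex, was at 3.67 (3.45 to 3.90) in cluster 7 and 0.111 (0.0707 to 0.166) in cluster 2, and at most 0.921 in cluster 6 elsewhere. Cdk1, the kinase that drives entry into mitosis, was at 1.59 (1.44 to 1.74) in cluster 7 and 0.0532 (0.0268 to 0.0946) in cluster 2, and at most 0.169 in cluster 6.

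Stmn1, which destabilises microtubules, was at 7.25 (6.93 to 7.57) in cluster 7 and 1.55 (1.38 to 1.72) in cluster 2, and from 0.0511 to 1.67 with a median of 0.641 over the 11 others. These 4 cycle markers thus lay 2.03 to 9.37 times above the next cluster. The crypt base gene Smoc2 differed less, at 1.10 (0.975 to 1.23) in cluster 7 and 0.704 (0.596 to 0.827) in cluster 2, and cluster 2 was the next highest. Lgr5, the receptor that marks crypt base stem cells, was at 0.115 (0.0784 to 0.162) in cluster 7 and 0.0328 (0.0131 to 0.0678) in cluster 2, with 0.117 in cluster 6. In cluster 6, with its shallower cells, 3 UMIs would give 0.0649 at the harmonic mean of the recovered totals.

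**Figure D2:**
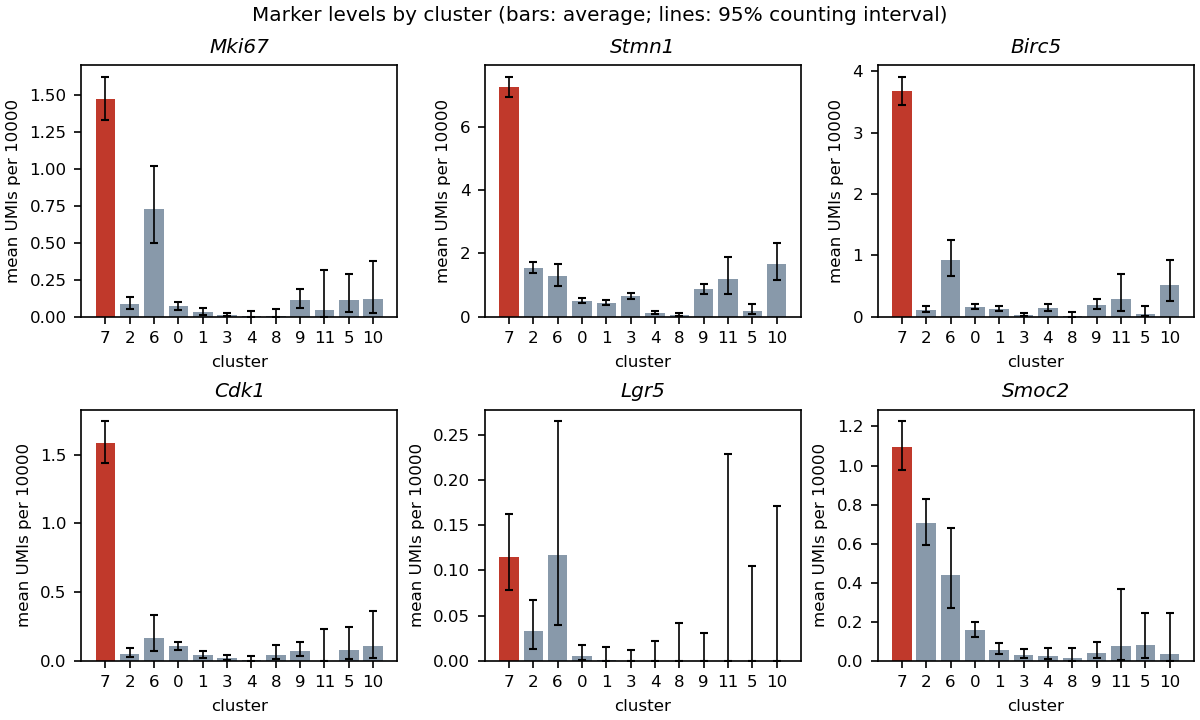
Levels of the 6 given markers in mean UMIs per 10000 (bars) with 95% counting intervals (lines), 1 panel a gene on its own linear scale, with cluster 7 in red at the left and then clusters 2, 6 and the rest. Mki67, Stmn1, Birc5, Cdk1 and Smoc2 are highest in cluster 7, while Lgr5 is at 0.115 in cluster 7 and 0.117 in cluster 6.

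In rank order of all genes cluster 7 was closest to cluster 2. Spearman's rho across 9544 genes was 0.903 with cluster 2, 0.859 with cluster 0, 0.853 with cluster 1 and 0.850 with cluster 9, and lowest, at 0.534, with cluster 5. Without the genes of the cell cycle lists it was 0.921 with cluster 2 and 0.876 with cluster 0, so the order of the nearest clusters did not depend on those genes. The correlations are across genes, which are not independent replicates.

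A gene was called leading where its level in cluster 7 was 0.2 or more and, with 0.1 added to each level, reached 2 times that of the highest other cluster. Of 5529 genes at that level, 92 were leading (1.66%). Just inside the limit were Tmpo, with 1.54 in cluster 7 and 0.718 in cluster 11 (2.01-fold), and Eldr (2.00-fold), and just outside lay Dctpp1 (1.995-fold) and Exosc8 (1.98-fold). Cluster 6 was next highest for 36 of the 92, cluster 10, which had the highest macrophage markers, for 32 and cluster 2 for 11. The cell cycle lists held 62 of the 92 genes (67.4%).

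Against cluster 2 a gene was called higher or lower where either level was 0.2 or more and the 2-fold limit was passed. Of 6133 genes past that level, 330 were higher in cluster 7 (5.38%) and 247 lower (4.03%). The counts of each list below are to be read beside these shares. Higher genes were 57.2% of those called. With the log2 differences centred on their median over these genes, 0.09, the split was 271 higher and 303 lower (47.2% higher). Of 254 measured genes of the cell cycle lists, 189 passed the level limit, 139 were higher and 0 were lower than in cluster 2, and 210 were highest in cluster 7 among the 12 clusters, against 11.5% of all 17044 genes and 19.1% of the 6133. Cell cycle genes made up 42.1% of the higher genes, which left 191 higher genes outside these lists.

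**Figure D3:**
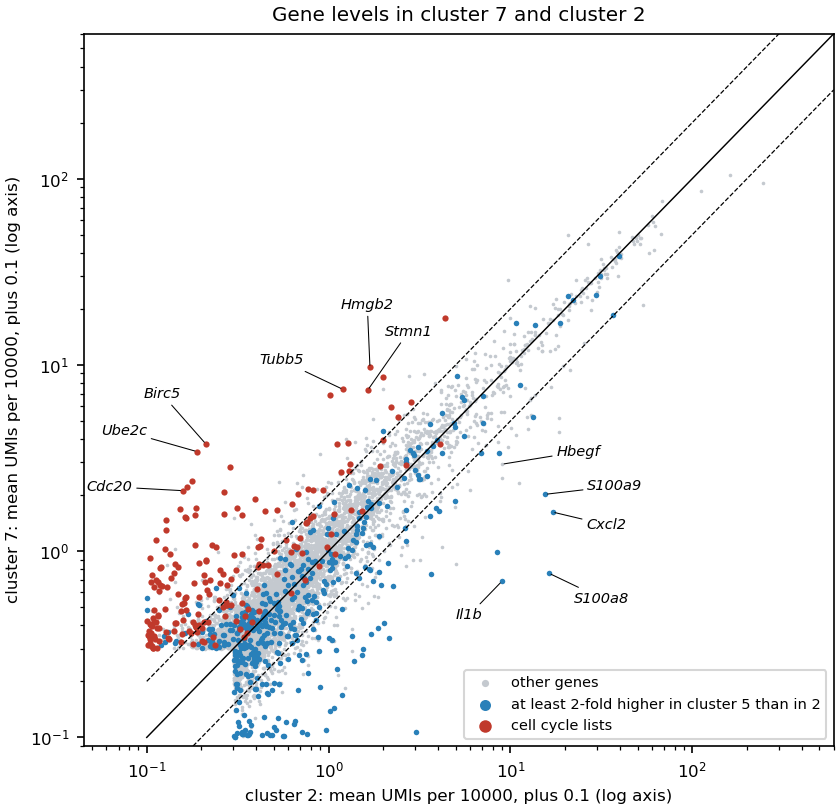
Levels in cluster 7 (vertical) against cluster 2 (horizontal), both in mean UMIs per 10000 plus 0.1 on log axes, 1 point a gene at 0.2 or more in either cluster, with the line of equality and dashed lines at 2-fold. Of the genes of the cell cycle lists (red), 139 lie above the upper dashed line and 0 below the lower one, where 96 of 247 genes are at least 2-fold higher in the neutrophil cluster 5 than in cluster 2 (blue), such as S100a8 and Il1b.

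Genes that license and fire replication origins were mostly highest in cluster 7. Of 22 measured, 12 passed the level limit, 10 were called higher and 0 lower than in cluster 2, and 19 were highest in cluster 7. The median log2 difference over the 22 was 1.08, against 0.003 over all genes. The MCM complex is the replicative helicase, and its 6 subunits were all highest in cluster 7, with 5 called higher. Mcm5 was at 0.784 (0.684 to 0.896) in cluster 7 and 0.112 (0.0715 to 0.167) in cluster 2, and at most 0.264 in cluster 10 elsewhere. Mcm7 was at 0.861 in cluster 7 against 0.232 in cluster 2, Mcm6 at 0.653 in cluster 7 against 0.163 in cluster 2 and Mcm3 at 0.469 in cluster 7 against 0.0934 in cluster 2, while Mcm2, at 0.286 in cluster 7 against 0.103 in cluster 2, stayed under the 2-fold limit with the added 0.1.

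Partners of the helicase were among the genes called higher. Gins2, a subunit of the GINS complex that activates it, was at 0.645 (0.554 to 0.747) in cluster 7 and 0.107 (0.0679 to 0.162) in cluster 2. Gmnn (geminin), which blocks the loading of new helicases, was at 0.949 (0.838 to 1.07) in cluster 7 and 0.311 (0.240 to 0.396) in cluster 2, and its target Cdt1 at 0.303 in cluster 7 against 0.0847 in cluster 2. Some members were too low to be called. Cdc6, a loader of the helicase, was at 0.129 (0.0899 to 0.178) in cluster 7 and 0.00756 (0.000618 to 0.0311) in cluster 2, and Cdc45, its cofactor, at 0.162 in cluster 7 against 0.0124 in cluster 2. Orc1, a subunit of the origin recognition complex, was the only one of the 22 not above cluster 2, at 0.0643 in cluster 7 against 0.0701 in cluster 2, and their intervals overlapped.

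At the replication fork 15 of 31 measured genes were called higher and 0 lower (22 passed the level limit), 24 were highest in cluster 7, and the median log2 difference was 1.01. The largest was 2810417H13Rik, listed by RefSeq as Pclaf, a factor that binds the sliding clamp PCNA, at 2.27 (2.10 to 2.46) in cluster 7 and 0.0776 (0.0447 to 0.125) in cluster 2. It was next highest in cluster 10, at 0.939. Top2a, the topoisomerase that untangles sister chromatids, was at 1.42 (1.28 to 1.56) in cluster 7 and 0.0616 (0.0328 to 0.105) in cluster 2. The counting intervals of the clusters were far apart for both genes.

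Pcna itself was at 0.962 (0.850 to 1.08) in cluster 7 and 0.319 (0.248 to 0.405) in cluster 2, a smaller difference of 3.01-fold (2.297 to 3.99). The ligase Lig1, which joins Okazaki fragments, was at 0.974 in cluster 7 against 0.129 in cluster 2, with 0.5996 in cluster 10, and the flap nuclease Fen1 was at 0.490 in cluster 7 against 0.121 in cluster 2. Prim1, the primase subunit that starts each fragment, was at 0.461 in cluster 7 against 0.0620 in cluster 2. Among the polymerase subunits of the list, Pold2 and Pold3, of polymerase delta, were called higher, Pold2 at 0.758 in cluster 7 against 0.316 in cluster 2 and Pold3 at 0.319 in cluster 7 against 0.108 in cluster 2. Pole was at 0.0982 in cluster 7 against 0.0121 in cluster 2 and Pola1 at 0.133 in cluster 7 against 0.0269 in cluster 2, neither past the level limit. Top1, the topoisomerase that also serves transcription, was close in the clusters, at 1.55 (1.41 to 1.70) in cluster 7 and 1.43 (1.27 to 1.60) in cluster 2.

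Nucleotide synthesis split by pathway. Of 23 measured genes (20 past the level limit), 10 were called higher and 0 lower, 19 were highest in cluster 7, and the median log2 difference was 0.94. The enzymes that make or guard thymidine and deoxynucleotides were the most different. Tk1 (thymidine kinase) was at 1.41 (1.27 to 1.55) in cluster 7 and 0.0637 (0.0343 to 0.108) in cluster 2, and at most 0.206 in cluster 10 elsewhere. Rrm2, the S phase subunit of ribonucleotide reductase, was at 0.717 (0.621 to 0.824) in cluster 7 and 0.0195 (0.00546 to 0.0493) in cluster 2, and its partner Rrm1 at 0.798 in cluster 7 against 0.112 in cluster 2. Tyms (thymidylate synthase) was at 1.70 in cluster 7 against 0.530 in cluster 2, and Dut, which removes dUTP, at 1.57 in cluster 7 against 0.423 in cluster 2.

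Enzymes of de novo purine and pyrimidine synthesis, which also serve RNA, were not called. Paics was at 0.951 (0.840 to 1.07) in cluster 7 and 0.884 (0.761 to 1.02) in cluster 2, Umps at 0.265 (0.208 to 0.333) in cluster 7 and 0.258 (0.194 to 0.336) in cluster 2, and Cad at 0.117 (0.0802 to 0.165) in cluster 7 and 0.0848 (0.0502 to 0.134) in cluster 2, with overlapping intervals in each case. Gart, at 0.426 in cluster 7 against 0.233 in cluster 2, lay 1.83 times above cluster 2, and Impdh2, at 2.77 in cluster 7 against 1.82 in cluster 2, 1.52 times. The folate enzyme Mthfd2 was called higher, at 0.258 in cluster 7 against 0.0559 in cluster 2, while the cytosolic Shmt1 was at 0.601 in cluster 7 against 0.641 in cluster 2.

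Most chromatin genes were called higher in cluster 7. Of 41 measured (36 past the level limit), 27 were called higher and 0 lower, 36 were highest in cluster 7, and the median log2 difference was 1.44. H2afz, the histone variant H2A.Z, was at 17.7 (17.2 to 18.2) in cluster 7 and 4.27 (3.99 to 4.56) in cluster 2. Hmgb2, a DNA-bending protein of proliferating cells, was at 9.59 (9.23 to 9.97) in cluster 7 and 1.59 (1.42 to 1.77) in cluster 2, and at most 4.44 in cluster 5 elsewhere, the neutrophil cluster. Cenpa, the histone H3 variant of centromeres, was at 2.11 (1.94 to 2.29) in cluster 7 and 0.0666 (0.0365 to 0.112) in cluster 2.

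The condensin subunits Smc2 and Smc4 were higher, Smc2 at 0.752 in cluster 7 against 0.0429 in cluster 2 and Smc4 at 1.60 in cluster 7 against 0.215 in cluster 2. Hells and Uhrf1, which keep DNA methylation through replication, were higher, Hells at 0.575 in cluster 7 against 0.0830 in cluster 2 and Uhrf1 at 0.346 in cluster 7 against 0.0161 in cluster 2, and the methyltransferase Dnmt1 at 0.384 in cluster 7 against 0.0649 in cluster 2. Of the core histone genes read, Hist1h2ap was at 0.585 in cluster 7 against 0.00577 in cluster 2, and Hist1h4c at 0.0269 in cluster 7 against 0.0356 in cluster 2. The histone genes are near-identical copies, so reads may not be assigned to single genes reliably, and these values are uncertain. Lmnb1 (lamin B1) was at 0.863 in cluster 7 against 0.990 in cluster 2, with a high of 16.6 in cluster 5.

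The cyclins split by phase. Cyclins of S phase and mitosis and their kinase were far above cluster 2, while the D cyclins of G1 were not. Ccna2 (cyclin A2) was at 1.37 (1.23 to 1.51) in cluster 7 and 0.0275 (0.00986 to 0.0605) in cluster 2, Ccnb1 (cyclin B1) at 1.19 (1.07 to 1.33) in cluster 7 and 0.0276 (0.00994 to 0.0607) in cluster 2 and Ccnb2 at 1.99 (1.83 to 2.16) in cluster 7 and 0.164 (0.114 to 0.229) in cluster 2. The next highest level lay in cluster 6 for all 3, at 0.238 for Ccna2, 0.194 for Ccnb1 and 0.297 for Ccnb2. Ccnd1 was at 0.877 (0.770 to 0.995) in cluster 7 and 0.617 (0.516 to 0.733) in cluster 2, Ccnd2 at 3.65 (3.43 to 3.89) in cluster 7 and 4.002 (3.74 to 4.28) in cluster 2 and Ccnd3 at 0.380 (0.311 to 0.460) in cluster 7 and 0.312 (0.242 to 0.397) in cluster 2, with none called.

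Of the 29 measured cyclins, kinases and activators (16 past the level limit), 10 were called higher and 0 lower, 19 were highest in cluster 7, and the median log2 difference was 0.81. Cdk4, the partner of the D cyclins, was called higher, at 2.59 (2.40 to 2.78) in cluster 7 and 1.19 (1.05 to 1.34) in cluster 2, and Cdk6 was at 0.246 in cluster 7 against 0.243 in cluster 2. The phosphatase Cdc25c, which activates Cdk1, was at 0.271 in cluster 7 against 0.00270 in cluster 2, and Pkmyt1, a kinase that restrains Cdk1, at 0.374 in cluster 7 against 0.0536 in cluster 2. Cyclin E1 and the transcription factors of the cycle were low. Ccne1 was at 0.156 in cluster 7 against 0.0669 in cluster 2, E2f1 at 0.0973 in cluster 7 against 0.0788 in cluster 2, Mybl2 (B-MYB) at 0.182 in cluster 7 against 0.00733 in cluster 2 and Foxm1 at 0.153 in cluster 7 against 0.00118 in cluster 2. Foxm1 was below the level limit, and cluster 7 held 87.8% of its summed level over the 12 clusters.

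Most kinetochore and spindle checkpoint genes were called higher in cluster 7. Of 31 measured (23 past the level limit), 18 were called higher and 0 lower, 27 were highest in cluster 7, and the median log2 difference was 1.52. Mad2l1, the checkpoint protein that holds back anaphase, was at 0.870 (0.764 to 0.987) in cluster 7 and 0.0348 (0.0144 to 0.0705) in cluster 2. Spc24 and Spc25, subunits of the NDC80 complex that grips microtubules, were higher, Spc24 at 1.47 in cluster 7 against 0.234 in cluster 2 and Spc25 at 0.549 in cluster 7 against 0.0213 in cluster 2. Cenpe, a kinetochore motor, was at 0.559 in cluster 7 against 0.0186 in cluster 2, but also reached 0.414 in cluster 6. Hjurp, the chaperone of CENP-A, was at 0.497 (0.417 to 0.587) in cluster 7 and 0.525 (0.432 to 0.632) in cluster 2, with overlapping intervals.

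The spindle list had 26 of 40 measured genes called higher and 0 lower (27 past the level limit), 36 highest in cluster 7 and a median log2 difference of 1.51. Plk1, the polo-like kinase of mitosis, was at 0.824 (0.721 to 0.938) in cluster 7 and 0.00438 (0.0000862 to 0.0258) in cluster 2. Aurka, the spindle pole kinase, was at 0.579 in cluster 7 against 0.0148 in cluster 2, and its activator Tpx2 at 0.599 in cluster 7 against 0.0131 in cluster 2. The motor Kif22 was at 0.710 in cluster 7 against 0.0188 in cluster 2, and no other cluster exceeded 0.0892. The tubulins that build the spindle were also called higher. Tubb5 was at 7.30 (6.99 to 7.63) in cluster 7 and 1.10 (0.960 to 1.25) in cluster 2, Tuba1b at 6.77 in cluster 7 against 0.923 in cluster 2 and Tubb4b at 8.46 in cluster 7 against 1.899 in cluster 2. Tubulin genes are alike in sequence, so the counts of single genes are uncertain.

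The passenger complex and cytokinesis list had the largest median of the cell cycle lists, 1.98. Of 19 measured genes (18 past the level limit), 17 were called higher and 0 lower, 19 were highest in cluster 7, and 13 were leading. The passenger complex corrects faulty attachments and then guides the cut. Beside Birc5, its kinase Aurkb was at 0.538 (0.456 to 0.632) in cluster 7 and 0.00935 (0.00111 to 0.0340) in cluster 2, its scaffold Incenp at 0.664 (0.571 to 0.767) in cluster 7 and 0.0419 (0.0190 to 0.0799) in cluster 2 and its borealin subunit Cdca8 at 1.61 (1.46 to 1.76) in cluster 7 and 0.0855 (0.0507 to 0.135) in cluster 2. Pbk, a mitotic kinase, was at 1.05 (0.934 to 1.18) in cluster 7 and 0.0119 (0.00200 to 0.0380) in cluster 2 and had the largest fold over the next cluster among leading genes of the lists, 12.6-fold over cluster 6. Racgap1 and Ect2, which switch on the contractile ring, were higher, Racgap1 at 0.929 in cluster 7 against 0.0255 in cluster 2 and Ect2 at 0.308 in cluster 7 against 0.00372 in cluster 2. Anln (anillin), which organises it, was at 0.209 in cluster 7 against 0.00690 in cluster 2.

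The mitotic ubiquitin ligase, the anaphase-promoting complex, had its largest differences in partners of the complex. Ube2c, the ubiquitin-conjugating enzyme that feeds it, was at 3.33 (3.12 to 3.55) in cluster 7 and 0.0885 (0.0531 to 0.139) in cluster 2, and at most 0.892 in cluster 6 elsewhere. Its activator Cdc20 was at 2.01 (1.85 to 2.19) in cluster 7 and 0.0574 (0.0298 to 0.09996) in cluster 2. These 2 genes had the first and the third largest difference from cluster 2 of all 6133 genes, 4.18 log2 for Ube2c and 3.75 log2 for Cdc20. The core subunits differed less than these, and not alike. Anapc1, at 0.302 in cluster 7 against 0.0942 in cluster 2, was called higher. Anapc11, at 1.44 in cluster 7 against 0.719 in cluster 2, and Anapc4, at 0.225 in cluster 7 against 0.107 in cluster 2, were not called. Closer to cluster 2 were Anapc13, at 2.79 in cluster 7 against 2.56 in cluster 2, and Cdc26, at 1.14 in cluster 7 against 0.929 in cluster 2. Cdc16 was at 0.347 in cluster 7 against 0.248 in cluster 2. Fzr1, the activator of late mitosis and G1, was at 0.526 in cluster 7 against 0.305 in cluster 2. Pttg1 (securin), a substrate, was at 0.732 (0.635 to 0.840) in cluster 7 and 0.786 (0.671 to 0.915) in cluster 2, with overlapping intervals. In all 6 of 18 measured genes were called higher and 0 lower (15 past the level limit), with a median log2 difference of 0.64.

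**Figure D4:**
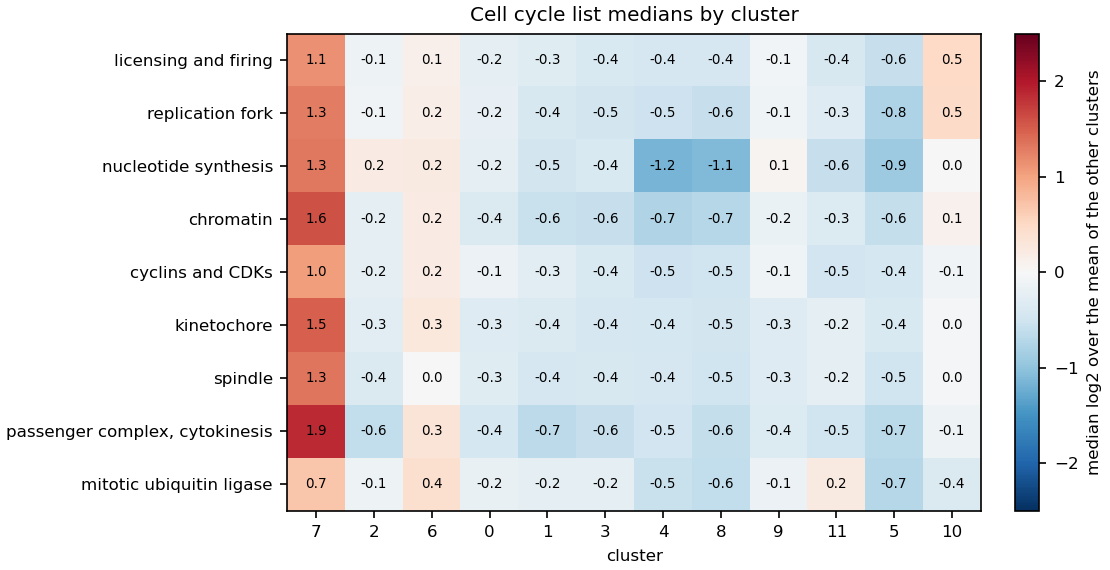
Median log2 difference of each cell cycle list between a cluster and the mean of the other clusters, for the 12 clusters with cluster 7 at the left, with the number in each cell rounded to 1 decimal. Every one of the 9 lists has its highest median in cluster 7, from 0.7 for the mitotic ubiquitin ligase to 1.9 for the passenger complex and cytokinesis.

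The promoter windows of these genes differed in the motifs they hold, counted here as plain letters. RefSeq promoter windows of build GRCm38.p6, from 250 bases before to 50 after a start site, were matched by symbol for 11364 of the 17044 genes (14462 windows). The motifs were the CCAAT box (CCAAT), the cell cycle homology region (TTTGAA or TTCGAA) and the E2F motif (TTTCGCGC, TTTGGCGC or TTTCCCGC), each on both strands, and matches may overlap. In the mitosis lists (88 of 108 genes matched, 99 windows), 66.7% of windows held a CCAAT box, against 37.3% of all windows, and 54.5% a cell cycle homology region, against 14.4%. Both motifs were in 43.4% of the mitosis windows, against 5.80% of all windows, while 6.06% held an E2F motif.

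In the DNA replication lists (62 of 76 genes matched, 70 windows), the E2F motif was in 24.3% of windows, against 3.13% of all windows. The cell cycle homology region was in 14 of the 70 replication windows and the CCAAT box in 51.4%. Windows of neighbouring start sites of a gene share bases, the lists were chosen with results known, and a match of letters is a description and not a binding site. The 8 stretches below are the 120 bases before the start site on the strand of the gene, 5′ to 3′, for 6 mitosis and fork genes among the 15 with the largest differences from cluster 2, and for the helicase subunits Mcm6 and Mcm3. They were picked to show stretches with the motifs and stretches without them. Capitals mark every match of the 3 motifs.
Ube2c, chr2:164769809-164769928, plus strand: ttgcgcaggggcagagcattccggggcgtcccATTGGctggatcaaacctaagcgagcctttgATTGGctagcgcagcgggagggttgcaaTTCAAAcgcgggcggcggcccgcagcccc
Cdc20, chr4:118437344-118437463, minus strand: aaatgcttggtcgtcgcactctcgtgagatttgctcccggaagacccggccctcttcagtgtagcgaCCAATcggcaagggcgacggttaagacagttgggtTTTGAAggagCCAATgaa
Cdk1, chr10:69352913-69353032, minus strand: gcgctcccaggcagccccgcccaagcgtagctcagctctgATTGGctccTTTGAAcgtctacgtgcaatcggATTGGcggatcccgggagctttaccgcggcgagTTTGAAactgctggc
Top2a, chr11:99024190-99024309, minus strand: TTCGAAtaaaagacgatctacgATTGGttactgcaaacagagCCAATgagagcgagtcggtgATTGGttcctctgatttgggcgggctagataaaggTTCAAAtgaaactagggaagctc
Mki67, chr7:135716380-135716499, minus strand: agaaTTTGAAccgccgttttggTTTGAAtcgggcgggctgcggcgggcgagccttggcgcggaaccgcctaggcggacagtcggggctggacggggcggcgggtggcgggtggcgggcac
Cdca8, chr4:124936918-124937037, minus strand: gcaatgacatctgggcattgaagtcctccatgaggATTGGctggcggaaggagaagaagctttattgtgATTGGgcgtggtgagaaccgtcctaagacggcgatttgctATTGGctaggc
Mcm6, chr1:128359706-128359825, minus strand: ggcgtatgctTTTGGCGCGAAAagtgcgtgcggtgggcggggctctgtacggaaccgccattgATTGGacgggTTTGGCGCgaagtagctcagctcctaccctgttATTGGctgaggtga
Mcm3, chr1:20820313-20820432, minus strand: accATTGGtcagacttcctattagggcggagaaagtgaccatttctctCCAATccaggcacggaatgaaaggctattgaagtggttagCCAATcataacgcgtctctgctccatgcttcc
Ube2c, Cdc20 and Cdk1 hold 2 CCAAT boxes each and a cell cycle homology region, and Cdk1 a second one. Top2a holds 3 CCAAT boxes and 2 homology regions, and Mcm6 holds 2 CCAAT boxes and 3 E2F motifs, of which 2 overlap. The stretch of Mki67 holds 2 homology regions and no CCAAT box, that of Cdca8 holds 3 CCAAT boxes and no homology region, and that of Mcm3 holds 3 CCAAT boxes and no E2F motif, although the missing letters occur elsewhere in their windows. Plk1 likewise has no homology region, and Mcm5 no E2F motif, in the same 120 bases.

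Inhibitors of the cycle had no common direction. Of 13 measured (9 past the level limit), 2 were called higher and 2 lower, and the median log2 difference was -0.06. Cdkn1a (p21), the inhibitor that p53 induces, was at 1.11 (0.989 to 1.24) in cluster 7 and 1.80 (1.62 to 1.99) in cluster 2, and from 1.51 to 6.52 with a median of 3.25 over the 11 other clusters, so cluster 7 lay below all of them. Cdkn2b (p15) was at 0.256 in cluster 7 against 0.534 in cluster 2, and Cdkn1b (p27) at 0.153 in cluster 7 against 0.223 in cluster 2. The 2 lower genes were the antiproliferative factors Btg1, at 1.75 in cluster 7 against 4.85 in cluster 2, and Btg2, at 3.51 in cluster 7 against 9.63 in cluster 2, both of them highest in the neutrophil cluster 5. The 2 higher ones were Cdkn2d (p19), at 0.423 in cluster 7 against 0.0905 in cluster 2, and Cdkn3, a phosphatase of the CDKs, at 0.743 (0.645 to 0.852) in cluster 7 and 0.0301 (0.0114 to 0.0641) in cluster 2.

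DNA repair genes were mostly too low to call. Of 43 measured (14 past the level limit), 4 were called higher and 0 lower, 23 were highest in cluster 7, and the median log2 difference was 0.55. Among the higher genes, the deubiquitinase Usp1 was at 0.396 (0.325 to 0.477) in cluster 7 and 0.101 (0.0624 to 0.153) in cluster 2, and the cohesin subunit Rad21 at 1.12 (0.996 to 1.25) in cluster 7 and 0.3996 (0.319 to 0.494) in cluster 2. The damage kinases were below the level limit, with Atm at 0.0625 in cluster 7 against 0.102 in cluster 2 and Chek1 at 0.0912 in cluster 7 against 0.00686 in cluster 2.

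Of 30 measured p53 targets, 16 passed the level limit, and the median log2 difference was 0.06. Of these 16, 1 was called higher and 2 lower, against 5.38% and 4.03% of the 6133 genes past that limit. Phlda3, which restrains AKT, was the higher one, at 0.556 (0.471 to 0.651) in cluster 7 and 0.190 (0.136 to 0.259) in cluster 2. Plk3, a stress kinase, and Btg2 were the lower ones, Plk3 at 0.180 in cluster 7 against 0.653 in cluster 2. Trp53 itself was at 1.32 (1.19 to 1.46) in cluster 7 and 0.784 (0.669 to 0.912) in cluster 2, Bax, which promotes cell death, at 2.62 in cluster 7 against 1.58 in cluster 2, and Mdm2, the ligase that degrades p53, at 0.196 in cluster 7 against 0.299 in cluster 2. Both libraries were labelled as irradiated, so the levels are relative to other cells of the same libraries.

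A minority of the stem cell genes of the crypt base were called against cluster 2. Of 28 measured (19 past the level limit), 3 were called higher (10.7% of those measured) and 0 lower. Of the 6133 genes past the level limit, 5.38% were higher and 4.03% lower. In cluster 7, 8 of the 28 were highest (28.6%), against 11.5% of all 17044 genes, and the median log2 difference was 0.25. Igfbp4, a secreted binding protein of insulin-like growth factors, was at 0.324 (0.260 to 0.398) in cluster 7 and 0.0757 (0.0433 to 0.123) in cluster 2, and at most 0.122 in cluster 6 elsewhere. The receptors Ephb2 and Ephb3, which keep cells in place along the crypt, were higher, Ephb2 at 0.504 in cluster 7 against 0.188 in cluster 2 and Ephb3 at 0.658 in cluster 7 against 0.236 in cluster 2. In cluster 6 they reached 0.749 (Ephb2) and 0.561 (Ephb3). The regulator Ascl2 was at 0.206 (0.156 to 0.267) in cluster 7 and 0.0954 (0.0584 to 0.147) in cluster 2, and Sox9 was level, at 0.978 in cluster 7 against 0.978 in cluster 2. Clu, which marks cells that restore the injured gut, was at 1.92 (1.76 to 2.09) in cluster 7 and 3.24 (3.004 to 3.49) in cluster 2 and Lgr4 at 0.367 in cluster 7 against 0.759 in cluster 2, neither called. Some genes that were not called, with 0.1 added, still lay over 2-fold apart without it, with intervals that leave out 1. These were Lgr5 at 3.50-fold (1.51 to 9.44), Ascl2 at 2.16-fold (1.28 to 3.79), Cdca7 at 2.22-fold (1.69 to 2.94) and, in the other direction, Lgr4 at 0.483-fold (0.373 to 0.624).

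Wnt targets had 15 of 28 past the level limit and a median log2 difference of 0.15. Of these 15, 2 were called higher (Ephb2 and Ephb3) and 0 lower, against 5.38% and 4.03% of the 6133 genes. Axin2, a feedback gene of the pathway, was at 0.127 in cluster 7 against 0.0776 in cluster 2, and Myc at 0.232 (0.179 to 0.297) in cluster 7 and 0.186 (0.133 to 0.254) in cluster 2. Notch and secretory fate genes had 0 of 22 called higher and 1 lower, with 9 past the level limit. The lower gene was Klf4, a factor of mature goblet and surface cells, at 0.853 (0.747 to 0.969) in cluster 7 and 2.41 (2.20 to 2.62) in cluster 2. Hes1, the main Notch target, was at 2.74 in cluster 7 against 3.90 in cluster 2, Atoh1, the master factor of secretory fate, at 0.165 in cluster 7 against 0.120 in cluster 2, and Spdef, which acts after it, at 0.247 (0.192 to 0.313) in cluster 7 and 0.0963 (0.0591 to 0.148) in cluster 2.

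Part of the secretory genes stood higher in cluster 7 and part stood lower. Among 14 measured deep crypt secretory genes (8 past the level limit), 5 were called higher and 1 lower, and among 24 goblet genes (17 past the limit) 3 higher and 4 lower. Reg4, a lectin of deep crypt secretory cells, was at 2.25 (2.08 to 2.43) in cluster 7 and 0.433 (0.349 to 0.532) in cluster 2, and 47.9 in cluster 0. Spink4, a protease inhibitor, was at 8.58 (8.24 to 8.93) in cluster 7 and 2.68 (2.47 to 2.91) in cluster 2, and 287 in cluster 0. Mptx1, a pentraxin, was at 3.90 in cluster 7 against 1.15 in cluster 2, Hepacam2 at 0.219 in cluster 7 against 0.0439 in cluster 2 and Pla2g2a, a phospholipase, at 0.254 in cluster 7 against 0.0461 in cluster 2.

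Of the goblet genes, 4 were called lower. Fcgbp, a mucus protein, was at 0.191 (0.143 to 0.2497) in cluster 7 and 0.786 (0.671 to 0.915) in cluster 2, Zg16, a mucus lectin, at 0.445 (0.370 to 0.531) in cluster 7 and 1.30 (1.15 to 1.46) in cluster 2, Clca1 at 0.127 in cluster 7 against 0.427 in cluster 2 and Klk1 at 2.03 in cluster 7 against 5.92 in cluster 2. Relative to cluster 0, where each of these is highest, cluster 7 had 4.69% of the level of Reg4, 2.99% of Spink4, 2.20% of the mucin Muc2, 0.395% of Fcgbp and 0.283% of Zg16. In cluster 2 the share was 0.904% for Reg4, 0.936% for Spink4, 1.22% for Muc2, 1.63% for Fcgbp and 0.824% for Zg16. The shares thus differed between genes in both clusters, and their order was not the same. The part of goblet cell RNA in these values was not tested.

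More absorptive genes were called lower than higher. Of 32 measured (22 past the level limit), 1 was called higher and 7 lower, with a median log2 difference of -0.33. Car2, a carbonic anhydrase, was at 4.09 (3.85 to 4.33) in cluster 7 and 10.6 (10.2 to 11.1) in cluster 2, Muc3, a mucin of the brush border, at 5.15 (4.88 to 5.42) in cluster 7 and 12.2 (11.7 to 12.6) in cluster 2, and the chloride exchanger Slc26a3 at 0.233 (0.179 to 0.297) in cluster 7 and 0.777 (0.663 to 0.905) in cluster 2. Selenbp1 was at 0.802 in cluster 7 against 3.07 in cluster 2, and the amino acid carrier Slc6a14 at 0.396 in cluster 7 against 1.42 in cluster 2. Guca2b (uroguanylin), a peptide that controls fluid secretion, was the higher gene, at 0.877 in cluster 7 against 0.362 in cluster 2, with a high of 2.06 in cluster 0. Among the 15 genes with the smallest ratio to cluster 2, Pck1, of gluconeogenesis, was at 0.0843 (0.0536 to 0.126) in cluster 7 and 1.14 (0.998 to 1.29) in cluster 2 and the gasdermin Gsdmc4 at 0.750 (0.652 to 0.860) in cluster 7 and 4.89 (4.60 to 5.20) in cluster 2, with their highest levels in clusters 2 and 3. Gsdmc copies are alike, and their counts are uncertain.

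Genes of the regenerating or fetal-like epithelium were partly higher. Of 26 measured (21 past the level limit), 6 were called higher and 1 lower, with a median log2 difference of 0.59. Ly6a (Sca-1), a surface protein of repairing epithelium, was at 7.31 (6.999 to 7.64) in cluster 7 and 1.903 (1.72 to 2.10) in cluster 2, although 27.3 in cluster 4. Its relative Ly6c1 was at 0.449 in cluster 7 against 0.0585 in cluster 2, and the gap junction gene Gja1 at 0.300 (0.239 to 0.372) in cluster 7 and 0.0415 (0.0188 to 0.0794) in cluster 2, at most 0.117 in cluster 6 elsewhere. Ly6 copies are alike, and their counts are uncertain. Anxa8 was at 1.13 in cluster 7 against 0.469 in cluster 2. The lower gene was Areg, an EGF receptor ligand, at 1.54 (1.40 to 1.69) in cluster 7 and 3.996 (3.73 to 4.27) in cluster 2.

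Growth and RNA processing lists had a minority of members called higher, 16.2% of the growth and 37.5% of the splicing genes measured. Both shares were above the 5.38% of all 6133 genes past the level limit. Highest in cluster 7 were 21 growth and 25 splicing genes (56.8% and 78.1%), against 19.1% of the 6133. Of 37 growth, Myc target and nuclear transport genes measured (34 past the level limit), 6 were called higher and 0 lower, with a median log2 difference of 0.73. Ptma (prothymosin alpha), a chromatin protein, was at 28.6 (28.02 to 29.3) in cluster 7 and 9.62 (9.21 to 10.05) in cluster 2. Ran, the GTPase of nuclear transport, was at 8.80 (8.45 to 9.16) in cluster 7 and 3.25 (3.02 to 3.51) in cluster 2, its cofactor Ranbp1 at 5.05 in cluster 7 against 1.65 in cluster 2 and its exchange factor Rcc1 at 0.489 in cluster 7 against 0.191 in cluster 2. Among 32 splicing genes, all past the level limit, 12 were higher and 0 lower, with a median of 0.79. Lsm5 and Lsm2, subunits of a ring that binds U6 RNA, were higher, Lsm5 at 2.10 in cluster 7 against 0.610 in cluster 2 and Lsm2 at 1.45 in cluster 7 against 0.446 in cluster 2.

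Ribosome biogenesis and proteasome genes were mostly highest in cluster 7, but by small amounts. Of 44 biogenesis genes (42 past the level limit), 1 was called higher, Nhp2, a protein of the pseudouridylation complex, at 3.33 (3.12 to 3.55) in cluster 7 and 1.502 (1.34 to 1.68) in cluster 2, and 34 were highest in cluster 7, with a median of 0.59. Of 37 proteasome genes, 1 was called higher, 0 were lower and 26 were highest in cluster 7, with a median of 0.59. The 86 ribosomal protein genes were level, with a median of 0.01 and 0 called in either direction (83 past the level limit).

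Some genes outside the lists were chosen after their values were seen. Phgdh, the entry enzyme of serine synthesis, was at 0.895 (0.787 to 1.01) in cluster 7 and 0.147 (0.09998 to 0.209) in cluster 2 and was leading, with at most 0.234 in cluster 6 elsewhere. Of the later enzymes, Psat1 was at 0.202 (0.153 to 0.263) in cluster 7 and 0.0492 (0.0240 to 0.0894) in cluster 2 and was called higher, and Psph was at 0.204 (0.155 to 0.265) in cluster 7 and 0.117 (0.0752 to 0.173) in cluster 2 and was not called. The mast cell proteases Mcpt1 and Mcpt2 were called higher too, Mcpt1 at 0.925 (0.815 to 1.05) in cluster 7 and 0.0439 (0.0204 to 0.0826) in cluster 2, with 126 in cluster 10, and Mcpt2 at 0.464 (0.387 to 0.551) in cluster 7, listed at 0 in cluster 2, with 62.8 in cluster 10. Their genes are alike, and their counts are uncertain. The part of mast cell RNA in these values was not tested. Other leading genes outside the lists were Gsta3, a glutathione transferase, at 1.83 in cluster 7 against 0.658 in cluster 2, and Reg3g, an antimicrobial lectin, at 0.879 in cluster 7 against 0.294 in cluster 2. The uncharacterised Gm43123 was at 0.384 (0.314 to 0.464) in cluster 7, listed at 0 in cluster 2 and at most 0.00544 in cluster 9, the largest ratio to the next cluster without the added 0.1 among the 15 genes named for that ratio.

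**Figure D5:**
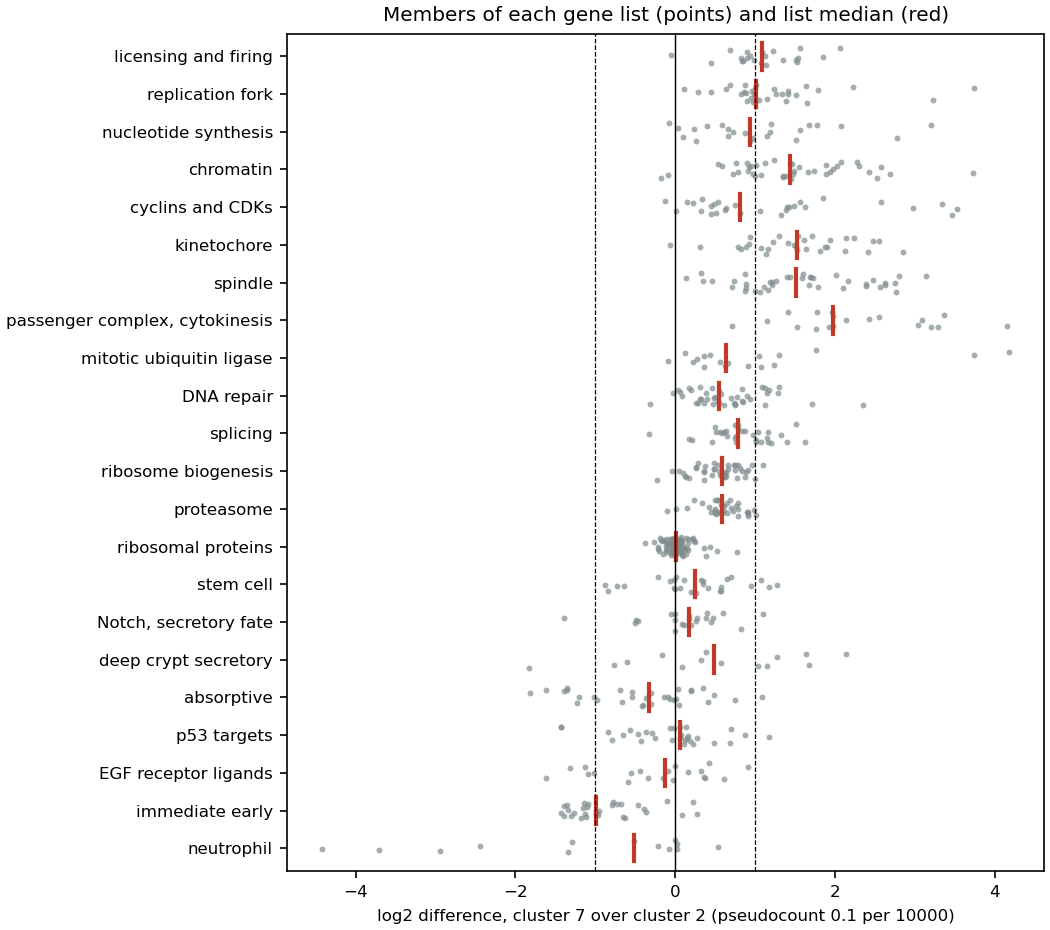
Log2 difference between cluster 7 and cluster 2, with 0.1 added to both levels, for each measured member of the gene lists named at the left (points) and the median of each list (red bars), with dashed lines at 2-fold in each direction. The lists of the cell cycle lie to the right with medians of 0.64 to 1.98, ribosomal proteins at 0.01, and immediate early genes at -0.99.

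The genes lower in cluster 7 began with those of neutrophils. Of 13 neutrophil genes measured (7 past the level limit), 0 were called higher and 5 lower. S100a8, a subunit of calprotectin, was at 0.660 (0.568 to 0.763) in cluster 7 and 16.2 (15.7 to 16.8) in cluster 2, and 427 in cluster 5. S100a9, the other subunit, was at 1.92 (1.76 to 2.09) in cluster 7 and 15.5 (14.96 to 16.03) in cluster 2, Il1b (interleukin 1 beta) at 0.587 (0.501 to 0.685) in cluster 7 and 8.86 (8.46 to 9.27) in cluster 2 and Retnlg at 0.0183 in cluster 7 against 0.546 in cluster 2. The granule gene Ngp was listed at 0 in clusters 7 and 2, but it was at only 0.0169 in cluster 5 and highest, at 2.81, in cluster 3. Csf3r, the receptor of the growth factor of neutrophils, was at 0.160 (0.117 to 0.215) in cluster 7 and 0.201 (0.145 to 0.272) in cluster 2, with overlapping intervals.

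Relative to cluster 5, cluster 7 had 0.155% of the level of S100a8, 0.435% of S100a9, 0.244% of Il1b and 0.0582% of Retnlg. In cluster 2 the share was 3.7997% for S100a8, 3.51% for S100a9, 3.68% for Il1b and 1.74% for Retnlg. Other genes of the list were closer. Csf3r had 1.81% in cluster 7 and 2.27% in cluster 2, Cxcr2 0.828% in cluster 7 and 1.02% in cluster 2. Lcn2 had 0.258% in cluster 7 and 0.230% in cluster 2. Over the 9 list genes that were highest in cluster 5, at 1 or more, the median share was 0.258% in cluster 7 and 2.91% in cluster 2. Of the 247 lower genes, 96 (38.9%) were at least 2-fold higher in cluster 5 than in cluster 2, against 7.96% of the 6133 genes. The other 151 were not. The chemokine gene Cxcl2, at 1.52 (1.38 to 1.67) in cluster 7 and 17.0 (16.5 to 17.6) in cluster 2, had 343 in cluster 5 and belongs to the first group. The part of neutrophil RNA in the values of cluster 2 was not tested.

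Immediate early and stress genes were called in 1 direction, lower in cluster 7. Of 31 measured (28 past the level limit), 0 were called higher and 14 lower, with a median log2 difference of -0.99. Jun, a subunit of the AP-1 factor, was at 9.25 (8.90 to 9.62) in cluster 7 and 21.1 (20.5 to 21.7) in cluster 2, and from 3.16 to 31.0 with a median of 13.01 over the 11 other clusters, so cluster 7 lay within their range. Atf3 was at 5.29 (5.02 to 5.57) in cluster 7 and 12.9 (12.4 to 13.4) in cluster 2, Junb at 5.16 in cluster 7 against 13.3 in cluster 2 and the phosphatase Dusp1 at 3.27 in cluster 7 against 8.53 in cluster 2. Fos stood just under the limit, at 12.97 in cluster 7 against 25.2 in cluster 2, while the heat shock proteins were not called, Hspa8 at 14.2 in cluster 7 against 11.7 in cluster 2 and Hsp90aa1 at 7.4001 in cluster 7 against 6.97 in cluster 2. The highest level lay in cluster 5, with the neutrophil markers, for 13 of the 31 genes, Junb and Dusp1 among them. The part of neutrophil RNA in this difference was not tested.

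Of 17 measured genes from the list that leads cluster 2, cluster 7 held the next highest level for 5, such as Edn2, at 0.628 in cluster 7 against 1.70 in cluster 2. Of the 17 (14 past the level limit), 8 were called lower and 0 higher, with a median of -0.97, and the list was picked for its levels in cluster 2. Hbegf, an EGF receptor ligand, was at 2.83 (2.64 to 3.04) in cluster 7 and 8.90 (8.50 to 9.31) in cluster 2, and Edn1 (endothelin 1) at 1.09 (0.973 to 1.22) in cluster 7 and 3.18 (2.95 to 3.43) in cluster 2. Ccl20, a chemokine of inflamed epithelium, was at 0.174 in cluster 7 against 0.672 in cluster 2. Among 20 genes of EGF receptor ligands, receptors and feedback (10 past the level limit), 0 were higher and 5 lower. Beside Hbegf and Areg these were the feedback inhibitors Errfi1, at 0.708 in cluster 7 against 1.62 in cluster 2, Spry2, at 0.0852 in cluster 7 against 0.274 in cluster 2, and Lrig3, at 0.123 in cluster 7 against 0.387 in cluster 2. Egfr itself was at 0.0784 (0.0490 to 0.119) in cluster 7 and 0.0991 (0.0613 to 0.152) in cluster 2 and Erbb3 at 0.454 (0.378 to 0.540) in cluster 7 and 0.397 (0.316 to 0.491) in cluster 2, with overlapping intervals.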

How the data were processed

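Single cells of colon epithelium were sequenced in 2 libraries of 1 group. The deposited table holds the authors' values, the average per gene and cluster of UMI counts scaled to 10000 per cell, as read from the values themselves; that scale and the unlogged form are not stated in the sources used here. Cell Ranger 3.1.0, Seurat 2.3 and the mm10 build are named in the submitters' processing notes. For cell filters, clustering settings and doublets the treatment is not given in the sources, and cell barcodes were not analysed here.

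The table's headings give cluster names only. A gene seen in 1 cell gives an average that is a whole number of UMIs over that cell's total and the cluster size. From such values cluster sizes and UMI totals were recovered (tolerance 1e-12). Approximate UMI counts were made with the number of cells and the harmonic mean of the totals, and Poisson 95% intervals from these counts. The intervals do not cover the unequal weight of UMIs from shallow and deep cells. With the unidentified cells as shallow as the shallowest one, intervals would be 1.81 times wider in cluster 7 and 1.87 times in cluster 2. Ratios used a pseudocount of 0.1 and a limit of 0.2 in level, and calls needed 2-fold. On simulated averages with known changes, 50 of 50 genes raised 4-fold and 45 of 50 lowered 4-fold were called. Of 50 raised 1.5-fold, which is under the limit, 0 were called, and of 5401 unchanged ones 2 were. Apart from the set changes, the simulated cells of both clusters shared the profile of cluster 2 and varied only in UMI totals and counting. The rate of false calls among real cells, which vary more, was therefore not tested.

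Named genes were the 15 with the largest ratio to the highest other cluster, the 15 with the largest and the 15 with the smallest ratio to cluster 2, and members of the gene lists; other names were chosen after their values were seen. Members and lists were chosen with earlier results of these data known. Some list members are not reported here by name. Alternatives changed the pseudocount, the limits, the scaling and the clusters compared. Leaving out a library was not possible because the columns do not separate the libraries. Python 3.11.15 was used with numpy 2.4.6, pandas 2.3.3, scipy 1.17.1 and matplotlib 3.10.9.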

Additional observations from a re-analysis of the deposited data

How the results depend on the processing

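With 1 group and no library columns there was no test, and counts of genes moved with the limits. The 92 leading genes became 140 with a pseudocount of 0.02, 10 with 1, 34 with a level limit of 1, 265 at 1.5-fold, 15 at 4-fold, 141 against epithelial clusters alone and 518 (9.37% of the genes at that level) against the mean of the other clusters. The 330 genes higher than in cluster 2 became 41 with a pseudocount of 1, 110 with a level limit of 1, 912 at 1.5-fold and 64 at 4-fold, and the 247 lower genes 39, 95, 624 and 41. In alternatives chosen after seeing the data, 191 higher genes were left without the cell cycle lists, and 151 lower genes without those at least 2-fold higher in cluster 5. The 9 cell cycle medians over cluster 2 were positive in every alternative run, from 0.20 (cyclins) to 3.63 (passenger complex). Over the mean of the other clusters, the p53 targets changed from a median of 0.13 to a mean of -0.015, and nuclear oxidative phosphorylation from 0.12 to -0.0012 against epithelial clusters, with the cause not tested. Of 419 alternatives of 94 list medians, 319 stayed close, 98 moved and 2 changed sign. At the harmonic mean of the recovered totals, 3 UMIs give a level of 0.0108 in cluster 7. They give 0.0649 in cluster 6, with its shallow cells, and 0.186 in cluster 11, with its 19 cells. In a shallower cell they give more. In cluster 7, 3 UMIs of Cd53 in a cell of 552 UMIs gave 0.220. No paired analysis was possible because the columns name clusters and no replicate. Leaving out each library was not run for the same reason.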

Other observations

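Other pathways of the crypt differed between cluster 7 and cluster 2 for single genes. Of 16 BMP pathway genes measured (8 past the level limit), 0 were called higher and 3 lower, with Id1, a target of the pathway, at 3.28 (3.07 to 3.50) in cluster 7 and 6.86 (6.52 to 7.23) in cluster 2. Its ligands Bmp2 and Bmp3 were lower, Bmp2 at 0.0681 in cluster 7 against 0.290 in cluster 2 and Bmp3 at 0.0566 in cluster 7 against 0.313 in cluster 2. Among 25 interferon-stimulated genes, 12 passed the level limit. Of these 12, 1 was called higher and 0 lower, against 5.38% and 4.03% of the 6133 genes. The higher gene was Ifitm3, at 4.30 (4.06 to 4.55) in cluster 7 and 1.88 (1.70 to 2.08) in cluster 2. Cholesterol synthesis had 0 of 22 called (19 past the level limit) and a median log2 difference of 0.26. Of 26 mitochondrially encoded genes (12 past the level limit), 0 were higher and 2 lower, the ribosomal RNAs mt-Rnr1, at 4.50 in cluster 7 against 10.001 in cluster 2, and mt-Rnr2, at 20.8 in cluster 7 against 53.7 in cluster 2, while 83 nuclear genes of oxidative phosphorylation (75 past the level limit) had 0 called in either direction and a median of 0.04.

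Some RNA in cluster 7 came from 1 cell. In cluster 7, 8.47% of the 15021 genes above 0 had their whole level from a single cell each, against 8.60% in cluster 2. Over all clusters the share ran from 7.77% (cluster 0) to 21.4% (cluster 11). In cluster 7 these were 1273 genes, with a median of 5 such genes per cell over 218 cells. A cell of 10418 UMIs gave 32 of them, against 17 in the next. They included mast cell genes, with 18 UMIs of Mcpt4, 10 of Cpa3 and 4 of Tph1. Of the leading genes and of the genes called higher, 0 had their whole level from 1 cell. That count leaves out genes that such a cell shares with others, and the mast cell proteases Mcpt1 and Mcpt2, both called higher, were not traced to single cells of cluster 7.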
